A study of Sus scrofa with 6 samples.

Results

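The genes described here encode the regulators that switch the kinase CDK1 on at the start of mitosis. They are the B cyclins CCNB1, CCNB2 and CCNB3, the A cyclin CCNA2, the phosphatases CDC25A, CDC25B and CDC25C, and the kinases WEE1, WEE2 and PKMYT1. A gene was included when the deposited table gave it exactly that name, so 8 of the 10 listed regulators were members, out of 17678 genes in the table. CCNA2 was not found by name or by identifier and is not analysed here. WEE1 was found by its Ensembl identifier in a row without a name, and its values are given beside those of the members.

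CDK1 is inactive until it binds a cyclin. In the complex, the WEE1 and WEE2 kinases and the membrane-bound kinase PKMYT1 add inhibitory phosphates to CDK1, and the CDC25 phosphatases remove them. The resulting CDK1 and cyclin B complex is the maturation promoting factor that drives both meiotic maturation of the oocyte and the early cleavage divisions, and its activity ends when cyclin B is destroyed. Before the embryonic genome is activated, the transcripts of these regulators are mostly of maternal origin, and many are stored in the oocyte and translated after their poly(A) tails are lengthened.

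The libraries came from pools of 20 porcine 2-cell embryos taken 32 h after parthenogenetic activation, so all embryos were activated without sperm. Matured oocytes had been injected before activation with non-specific siRNA (NC, 3 libraries) or with a mix of 3 siRNAs against SIN3A (KD, 3 libraries). SIN3A is the scaffold of a corepressor complex that carries histone deacetylases. Embryos of both groups had undergone the same in vitro maturation, injection, electrical activation and treatment with cycloheximide and cytochalasin B. The comparison asks which transcripts differ between SIN3A-depleted and control embryos before most of the KD embryos stop at the 2-cell stage.

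The values are read estimates normalized between libraries, and they are not scaled to transcript length. They summed to between 11084950 and 11500709 per library. The spacing of the lowest values gave an estimated depth of 7770000 to 15700000 reads, with overlapping ranges in NC and KD. SIN3A itself had values of 37361, 33964 and 32404 in the NC libraries and of 3271, 1079 and 4173 in the KD libraries (values are listed in the order of replicates 1 to 3 throughout), so the targeted transcript was low in each library labelled KD. Of 12 oocyte and embryo markers, 10 were found, and their summed value was 68257 to 75526 in NC and 67493 to 82729 in KD libraries. KPNA7 and BMP15 made up most of it, with NC means of 38666 and 20209. Of 12 markers of cumulus and granulosa cells, 10 were found, and their sum was 294 to 351 in NC and 304 to 355 in KD libraries. GREM1 made up most of that sum, with 219 to 282, while the steroid-producing enzyme CYP11A1 was at 0.974 to 14.2. PTX3, a matrix protein of the expanded cumulus, was listed at 0 in all 3 KD libraries, with an NC mean of 1.51. CYP19A1 went the other way, with means of 1.83 in NC and 7.74 in KD. Both were too low to be tested. Per the labels, messenger RNA was selected on oligo(dT) beads, so the values are of transcripts with a poly(A) tail. In such pools, a lower value may stand for less transcript in each embryo or for fewer embryos that carry it. It may also stand for a shorter poly(A) tail on transcript that is still present. These readings cannot be told apart.

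The untranslated 3' end of a maternal transcript holds the short motifs through which its poly(A) tail and translation are controlled. They were read from the longest RefSeq mRNA of each gene in the genome build Sscrofa11.1, on the strand of the mRNA, and are shown because CCNB1 and its relatives differ in them. The cytoplasmic polyadenylation element, bound by CPEB proteins, was searched as TTTTAT, the polyadenylation signal as AATAAA and the Pumilio binding element as TGTANATA. Counts and absences hold for these letters only, and other forms of the elements were not searched. CCNB1 lies on chromosome 16 from 47338239 to 47348385, where it is read from the plus strand, and its single RefSeq mRNA has 9 exons, 2045 bases and a 3' UTR of 605 bases. That 3' UTR held 2 polyadenylation elements, of which the downstream one began 182 bases before the mRNA end, a Pumilio element, and 3 polyadenylation signals, the last of them 23 bases before the end. CCNB2 lies on chromosome 1 from 112907047 to 112942218 on the minus strand. Its 3' UTR of 706 bases held neither of the first 2 motifs and had 2 Pumilio elements. CCNB3 is an X-linked gene (chrX:43922729-43988939, plus strand), and its short 3' UTR of 242 bases held 2 polyadenylation elements and a polyadenylation signal. The sites are printed here 5' to 3', with the motif in capitals.
CCNB1, upstream polyadenylation element, chr16:47348030-47348059: tggctcttcttgTTTTATgtacttggcata
CCNB1, downstream polyadenylation element, chr16:47348192-47348221: ctagtccccttgTTTTATatttcctctggt
CCNB1, last polyadenylation signal, chr16:47348351-47348380: ttggttaagaaaAATAAAacaatccttaga
CCNB1, Pumilio element, chr16:47347827-47347856: catgtgccatcTGTACATAttatatgttac
CCNB2, upstream Pumilio element, chr1:112907688-112907717: cttactaacttTGTATATAtagtccttttg
CCNB2, downstream Pumilio element, chr1:112907499-112907528: gaggtgaggacTGTAGATAatgcaagtaag
CCNB3, upstream polyadenylation element, chrX:43988799-43988828: acttttcttcatTTTTATtctctttgtttg
CCNB3, downstream polyadenylation element, chrX:43988859-43988888: tttaagttttttTTTTATaaaagagaagaa

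In the last 200 bases of the 3' UTR, a polyadenylation element was present in CCNB1 and CCNB3, 2 of the 5 members with a 3' UTR of that length, and in 22.2% of 15770 porcine genes. A polyadenylation signal was present there in 4 of the 5 and in 60.6% of genes, and a Pumilio element in 0 of the 5 and in 7.2% of genes. CDC25A and CDC25B had their elements further upstream, the nearest of them 1234 and 583 bases before the mRNA end. WEE1, outside the membership rule, had 2 elements in the window, 180 and 59 bases before the end. The RefSeq mRNAs of CDC25C, WEE2 and PKMYT1 have 3' UTRs of 0, 108 and 133 bases, and the window was not searched in them. A match is a run of letters and not a shown binding site.

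**Figure D1:**
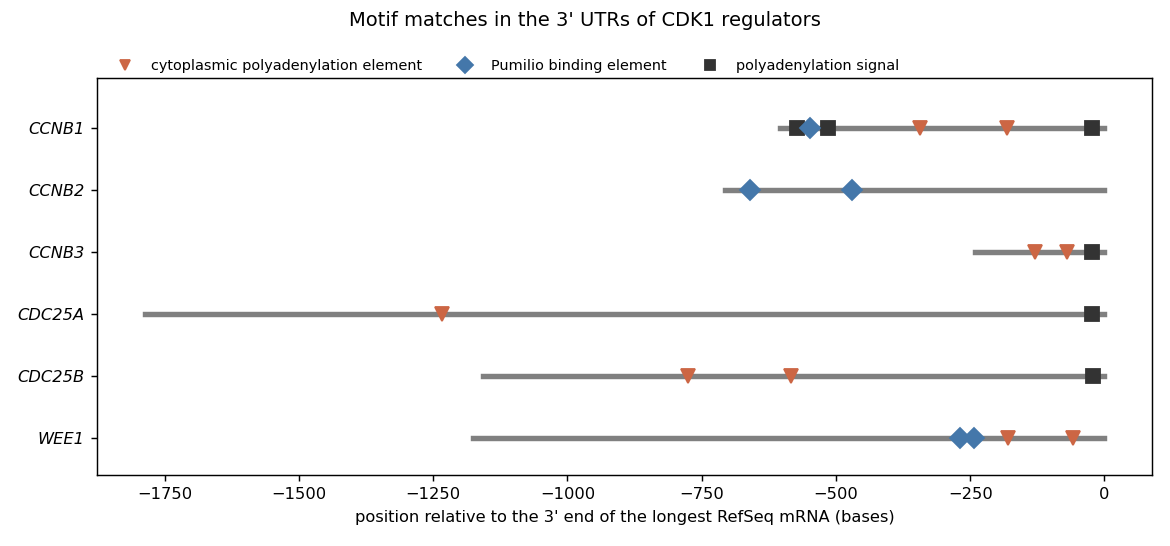
The 3' UTRs of the B cyclins, CDC25A, CDC25B and WEE1 (grey lines, longest RefSeq mRNA) are drawn to scale in bases before the mRNA end. Triangles mark cytoplasmic polyadenylation elements, diamonds Pumilio elements and squares polyadenylation signals, and CCNB1 and CCNB3 carry triangles within 200 bases of the end, as does WEE1, while CCNB2 carries none.

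The start of the gene is shown for CCNB1, the member that fell in KD embryos. Its promoter was taken as the 250 bases before and the 50 bases from the RefSeq gene start of Sscrofa11.1 and searched on both strands for CCAAT, the box bound by NF-Y, for TTTGAA, the cell cycle homology region found in promoters of mitotic genes, and for CACGTG, the E-box bound by MYC, MAX and MXD proteins. Motif letters are in capitals, and positions count from the gene start. The CCNB1 window held CCAAT at -75 and -43, 32 bases apart, and an E-box at -158, and had no TTTGAA. Here too only these letters were searched, so other forms of the cell cycle homology region may be present. Of 20667 porcine promoters, 35.7% held a CCAAT box, 7.6% an E-box and 14.5% a cell cycle homology region. The sequence follows on the strand of the gene.
CCNB1, chr16:47337989-47338288, plus strand: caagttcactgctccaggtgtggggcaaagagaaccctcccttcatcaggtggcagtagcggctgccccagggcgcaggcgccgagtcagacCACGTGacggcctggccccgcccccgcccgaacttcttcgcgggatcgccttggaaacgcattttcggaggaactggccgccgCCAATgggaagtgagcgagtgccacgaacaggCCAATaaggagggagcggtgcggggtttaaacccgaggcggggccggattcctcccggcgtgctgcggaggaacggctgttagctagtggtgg

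CCNB1 encodes cyclin B1, the main mitotic partner of CDK1. The values of CCNB1 (ENSSSCG00000029326) were 8891, 9039 and 7729 in the NC libraries against 2113, 974 and 2171 in the KD libraries. The means were 8553 ± 717 in NC and 1753 ± 675 in KD embryos (SD of 3 libraries each), so 20.5% of the NC mean was left. All 3 KD libraries were below all 3 NC libraries. In the single KD libraries 24.7%, 11.4% and 25.4% of the NC mean of CCNB1 remained, beside 9.46%, 3.12% and 12.1% of the NC mean of SIN3A. KD replicate 2 had the lowest value for both genes, and a relation between them within the 3 KD libraries was not tested. The coefficient of variation of CCNB1 was 8.38% in NC and 38.5% in KD libraries, and that of SIN3A was 7.33% and 56.0%. The log2 fold change of CCNB1 in KD was -2.37 (standard error 0.21, 95% interval -2.81 to -1.94, adjusted p = 1.36e-05 by limma over 11986 genes with Benjamini-Hochberg adjustment). By an exact permutation test (two-sided) p was 0.1, and 3 libraries against 3 cannot give a smaller value. The call was lost without the trend of the variance with the mean (adjusted p = 0.423 by limma) and with the robust empirical Bayes step (adjusted p = 0.439 by limma).

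CCNB1 was the only member called. The count was thus 1 of 8 members, against 0.159% of all genes tested that were called in either direction. The list was chosen around the fall of CCNB1, which the authors had reported from these same libraries. The counts that include CCNB1 therefore describe the list and are no test of it. The groups did not overlap in 1 of 8 members, against 9.79% of all genes tested. An unadjusted p below 0.05 was reached by 2 of 8 members, CCNB1 and PKMYT1, against 4.61% of all genes tested, and by 1 of 8 when NC replicate 1, NC replicate 2, KD replicate 1 or KD replicate 2 was left out. The median log2 fold change was 0.03 over the 8 members, 0.04 over the 7 members without CCNB1 and 0.0026 over all genes tested.

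CCNB2 (ENSSSCG00000004588), a cyclin associated with the Golgi and the second partner of CDK1 in mitosis, had values of 1574, 1439 and 1317 in NC and of 1425, 1587 and 1430 in KD libraries. The groups overlapped, with the lowest value in NC replicate 3 and the highest in KD replicate 2. For CCNB2 the log2 fold change was 0.04 (standard error 0.10, 95% interval -0.17 to 0.25). CCNB3 (ENSSSCG00000012307), a cyclin with a role in meiosis, had values of 525, 612 and 706 in NC and of 617, 711 and 763 in KD libraries. Its groups overlapped too, and in each group replicate 1 was the lowest and replicate 3 the highest. The difference on the log2 scale was 0.19 for CCNB3 (standard error 0.13, 95% interval -0.08 to 0.46), with 0.079 without NC replicate 1 and 0.29 without NC replicate 3. Neither passed the test (adjusted p = 0.997 for both by limma), and both intervals lay within a 2-fold change in either direction.

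**Figure D2:**
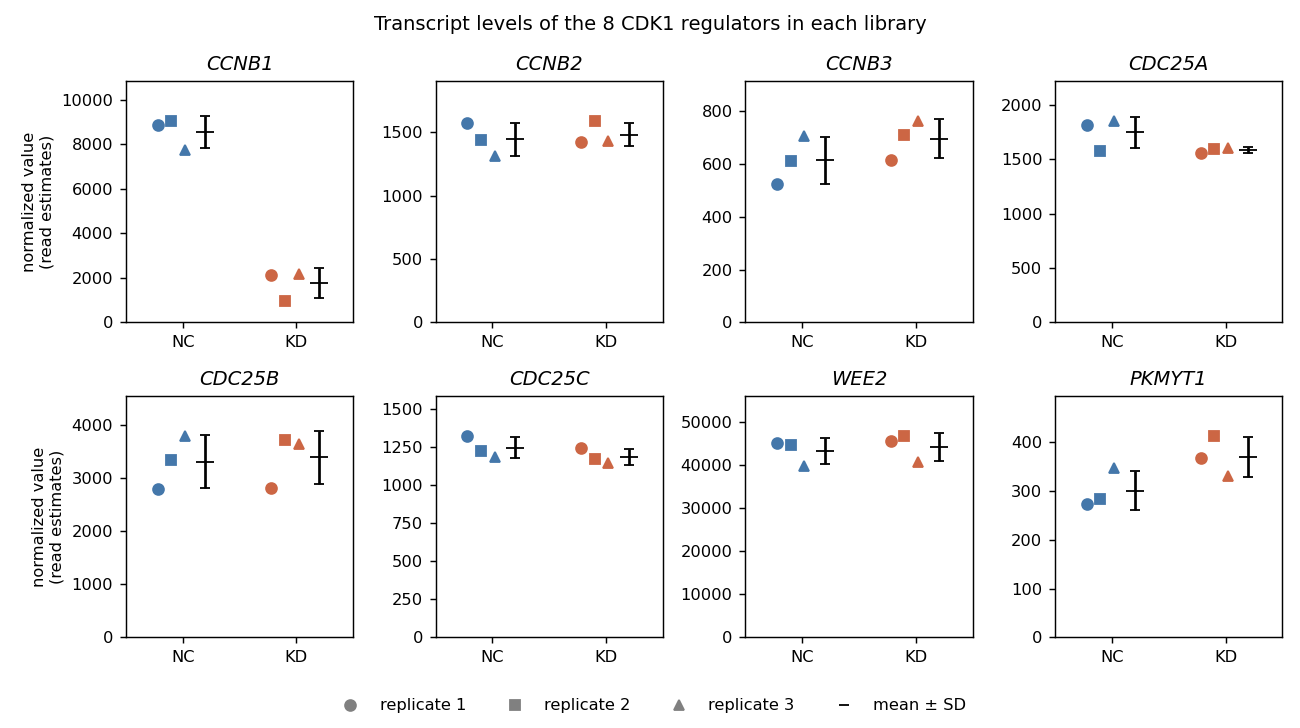
Normalized values (read estimates, linear axes from 0) of the 8 members in 3 NC and 3 KD libraries, with 1 symbol per replicate number and the mean ± SD beside each group. The KD libraries lie between 974 and 2171 for CCNB1, below all NC libraries, and the groups overlap for the other 7 members.

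Since the B cyclins share a library, their ratio does not depend on how libraries were scaled. The ratio of the CCNB1 to the CCNB2 value was 5.65, 6.28 and 5.87 in the NC libraries and 1.48, 0.614 and 1.52 in the KD libraries. The groups did not overlap, and in KD replicate 2 the CCNB1 value was below that of CCNB2. On the log2 scale the ratio was 2.57 ± 0.077 in NC embryos, and in KD embryos it was 0.16 ± 0.74 (SD of 3 libraries each). The difference was -2.41, and the two-sided exact permutation test reached its lowest possible p of 0.1.

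Levels of different genes were compared per kb of the longest RefSeq mRNA. Per kb, CCNB1 made up 83.0%, 84.0% and 82.5% of the summed B cyclin level in the NC libraries and 55.2%, 33.7% and 54.9% in the KD libraries. The summed level of the 3 B cyclins was 5029 ± 385 per kb in NC and 1740 ± 283 per kb in KD embryos (SD of 3 libraries each), without overlap between the groups. The share of CCNB2 in this sum was 14.1% ± 0.665 in NC and 43.0% ± 10.6 in KD (SD of 3 libraries each), although its own level did not pass the test.

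**Figure D3:**
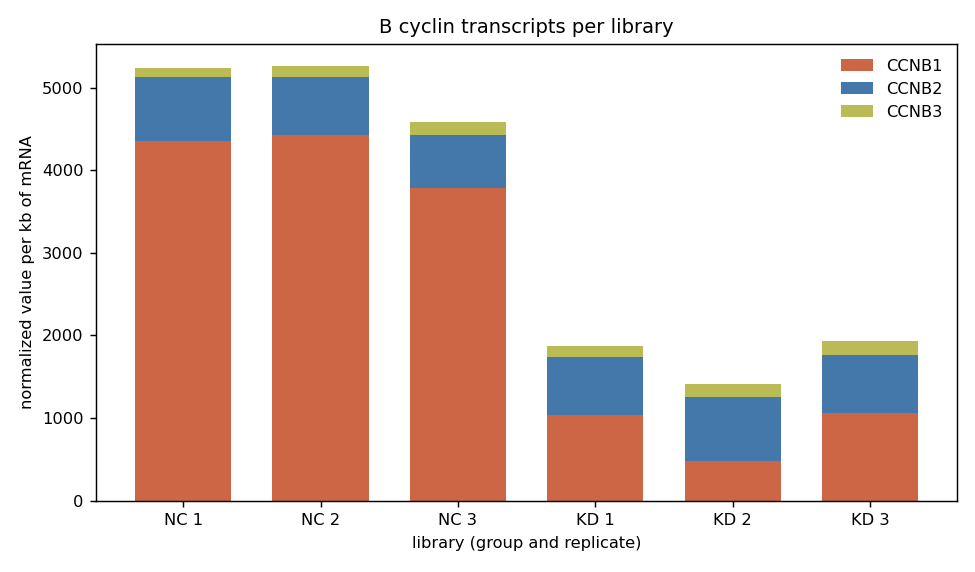
Stacked normalized values per kb of the longest RefSeq mRNA of CCNB1, CCNB2 and CCNB3 in each of the 6 libraries, on a linear axis from 0. The CCNB1 part shrinks from over 82% of each NC bar to between 33.7% and 55.2% of each KD bar, and the parts of CCNB2 and CCNB3 stay of similar height.

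The CDC25 phosphatases remove the inhibitory phosphates from CDK1. CDC25A (ENSSSCG00000021494), which also acts at the entry into S phase and lies on an unplaced scaffold of Sscrofa11.1, had values of 1813, 1582 and 1851 in NC and of 1560, 1596 and 1609 in KD libraries. NC replicate 2 lay among the KD libraries, so the groups overlapped, and the KD values spread little, with a coefficient of variation of 1.58%. For CDC25A the log2 fold change was -0.14 (standard error 0.09, 95% interval -0.34 to 0.06).

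CDC25B (ENSSSCG00000007151), which is needed for mouse oocytes to resume meiosis, lies on chromosome 17 from 31910824 to 31929418. It had values of 2794, 3338 and 3793 in NC and of 2813, 3723 and 3641 in KD libraries, the widest spread among the 3 phosphatases. In both groups replicate 1 was the lowest. For CDC25B it was 0.04 (standard error 0.12, 95% interval -0.22 to 0.29). CDC25C (ENSSSCG00000014329), the phosphatase that CDK1 itself activates in a feedback loop, lies on chromosome 2 from 140289156 to 140323696. It had values of 1319, 1223 and 1184 in NC and of 1242, 1169 and 1142 in KD libraries, with overlapping groups and the lowest value in KD replicate 3. For CDC25C the difference on the log2 scale was -0.07 (standard error 0.10, 95% interval -0.27 to 0.14). The adjusted p was 0.997 by limma for all 3 phosphatases.

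Of the kinases that inhibit CDK1, WEE2 (ENSSSCG00000016489), the form of the oocyte, was the most abundant of all members. It lies on chromosome 18 from 8171133 to 8196836 and had values of 45103, 44692 and 39792 in NC and of 45435, 46658 and 40560 in KD libraries. Replicate 3 was the lowest in both groups, and the groups overlapped. Between the groups WEE2 differed by 0.03 on the log2 scale (standard error 0.09, 95% interval -0.15 to 0.22, adjusted p = 0.997 by limma).

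PKMYT1 (ENSSSCG00000029264), the membrane-bound inhibitory kinase, lies on chromosome 3 from 39201819 to 39209261. It had values of 273, 283 and 347 in NC and of 368, 413 and 331 in KD libraries. Only KD replicate 3 lay below the highest NC library. PKMYT1 had a log2 fold change of 0.30 (with a standard error of 0.14 and a 95% interval of 0.0022 to 0.60), with an unadjusted p of 0.0485 and an adjusted p of 0.997 by limma, so PKMYT1 was not called. WEE1 (ENSSSCG00000013411), the form of somatic cells, was the scarcest of the kinases, with values of 3.12, 16.1 and 13.7 in NC and of 10.7, 22.2 and 7.69 in KD libraries. Its log2 fold change of 0.40 had a 95% interval of -0.92 to 1.72. At values this low the log2(value + 1) scale understates changes, so a 2-fold change in either direction was not excluded. Per kb, WEE2 made up 98.9% to 99.3% of the summed level of the 3 inhibitory kinases in every library.

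The summed CDC25 values over the summed values of WEE1, WEE2 and PKMYT1 were 13.1%, 13.7% and 17.0% in NC and 12.3%, 13.8% and 15.6% in KD libraries. The groups overlapped. The log2 ratio differed by -0.067 between KD and NC (two-sided p = 0.7 by exact permutation test), and the sign turned when NC replicate 3 (0.049) or KD replicate 1 (0.020) was left out. This quantity is dominated by the abundant WEE2, and only its difference between groups was read.

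For the 7 members other than CCNB1, the 95% intervals of the log2 fold change ran from -0.34 at the lowest, for CDC25A, to 0.60 at the highest, for PKMYT1. All 7 intervals were therefore within a 2-fold change, and none reached the upper bound of -1.94 of the CCNB1 interval. CDK1 (ENSSSCG00000010214), the kinase that these proteins control, was found by its identifier. It had values of 452, 304 and 253 in NC and of 280, 393 and 347 in KD libraries. The CDK1 groups overlapped, and the log2 fold change was 0.05 (standard error 0.19, 95% interval -0.35 to 0.44, adjusted p = 0.997 by limma).

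**Figure D4:**
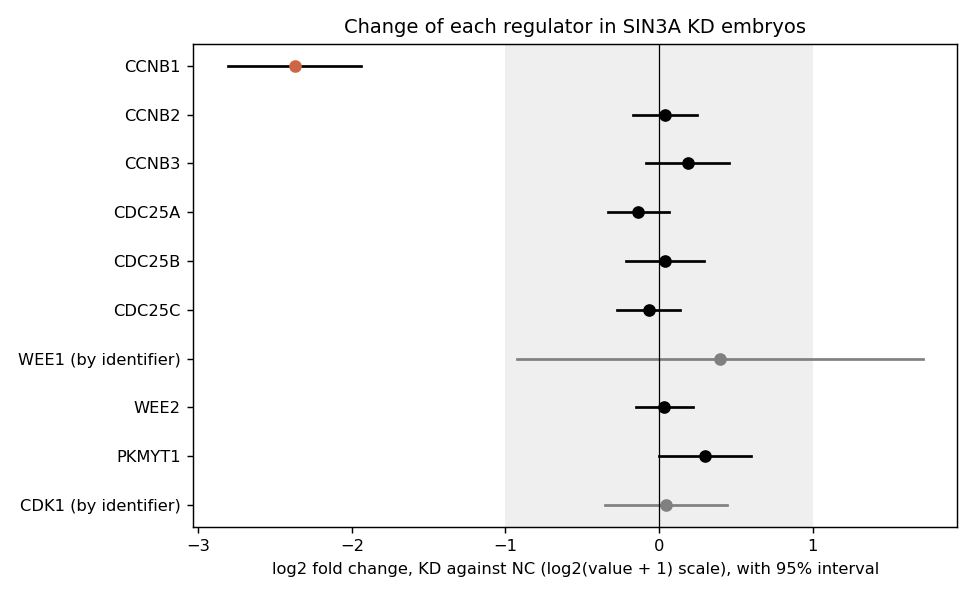
Log2 fold change of KD against NC (log2(value + 1) scale) with the 95% interval by limma for the 8 members (black), and for WEE1 and CDK1, which were found by identifier (grey). The orange point is past an adjusted p of 0.05, the shaded band spans a 2-fold change in either direction, and CCNB1 is the single member outside it, with an interval of -2.81 to -1.94.

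In NC embryos the levels per kb covered a wide range. WEE2 was the highest at 16337 per kb (range over libraries 15050 to 17059), followed by CCNB1 at 4182 per kb (3780 to 4420). CDC25B was at 937 per kb (791 to 1074), CDC25C at 825 (786 to 876) and CCNB2 at 710 (647 to 774), and of these neighbours CDC25B and CDC25C overlapped while CDC25C and CCNB2 did not. CDC25A followed at 454 per kb (410 to 480), and CCNB3 at 137 (117 to 157) and PKMYT1 at 136 (123 to 156) were the lowest and overlapped. In KD embryos CCNB1 moved to 857 per kb (476 to 1062), where its range overlapped those of CDC25B (797 to 1054), CDC25C (758 to 825) and CCNB2 (701 to 780). The RefSeq mRNA of CDC25C holds the coding sequence alone, so its level per kb is overstated against the others. Per kb of coding sequence, CDC25C had 825 in NC and came below CCNB2 with 1221 and CDC25A with 1110. On that scale PKMYT1 had 203 and CCNB3 had 153 in NC, so their near equality per kb of mRNA depends on the length used. CCNB1 in KD, with 1340 per coding kb, then lay between CDC25B with 1693 and CCNB2 with 1253.

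The genes whose profile over the 6 libraries was most like that of CCNB1 were SIN3A (Pearson's r of 0.998 on the log2(value + 1) scale), CDO1 (0.996), LETMD1 (0.995), VGLL3 (0.994) and PEX3 (0.993). These values describe 6 libraries that fall into the 2 groups, so a gene that is lower in all KD libraries can score high. Their log2 fold changes were -3.81 for SIN3A, -0.31 for CDO1, -0.69 for LETMD1, -0.57 for VGLL3 and -0.66 for PEX3, of which SIN3A and LETMD1 passed an adjusted p of 0.05 by limma. Among the members, the coefficient with CCNB1 ran from -0.84 for PKMYT1 to 0.61 for CDC25A.

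The wider pathway was described with 41 genes in 4 lists, of which 36 were found and 35 tested. Of these, 1 was higher, 0 were lower and 34 were not called, and the median log2 fold change was -0.02 against 0.0026 over all genes tested. The groups did not overlap for 4 of the 35, against 9.79% of all genes tested, a share near that background. They were CKS2 and PPP2R2A, lower in all KD libraries, and YWHAH and FBXW11, higher in all KD libraries. An unadjusted p below 0.05 was reached by 3 of the 35, against 4.61% of all genes tested, and this number was 6 without NC replicate 1, 5 without KD replicate 3, 2 without KD replicate 1 or 2, and 1 without NC replicate 2.

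The first list holds CDK1, its partners and the kinase complex that activates it by phosphorylation, with 7 of 8 genes tested and 0 called. Its log2 fold changes ran from -0.36 for CCNH, the cyclin of the activating kinase, to 0.06 for CDK7, its catalytic subunit. CCNH had means of 65.4 ± 9.69 in NC and 50.9 ± 9.30 in KD (SD, n = 3 each), with overlapping groups. The A cyclin of germ cells, CCNA1, was too low to be tested, with means of 1.88 in NC and 4.88 in KD.

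The second list holds the kinases and phosphatase inhibitors that promote mitotic entry, such as PLK1, its activator BORA, and MASTL with its substrate ENSA. All 7 tested genes had log2 fold changes between -0.14 and 0.12, and 0 of 7 were called. AURKA and ARPP19 were not found.

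The third list holds the proteins that restrain CDK1 or CDC25, among them the checkpoint kinases CHEK1 and CHEK2 and the YWHA adaptor proteins that hold phosphorylated CDC25 in the cytoplasm. Of 13 tested genes 1 was called. YWHAH, the eta form of the adaptor, had values of 1278, 1204 and 1337 in NC and of 1923, 2016 and 1653 in KD libraries. All KD libraries were above all NC libraries. YWHAH rose by 0.55 on the log2 scale (standard error 0.10, 95% interval 0.33 to 0.76, adjusted p = 0.0342 by limma). The call on YWHAH was lost in 5 of the 6 fits that each left out a library, with adjusted p values by limma of 0.0836, 0.319 and 0.0943 without NC replicates 1, 2 and 3 and of 0.281 and 0.329 without KD replicates 1 and 2, and also with quantile normalization (0.0587) and without the variance trend (0.709). The other 4 tested YWHA genes had log2 fold changes of 0.0041 for YWHAB, -0.07 for YWHAG, -0.06 for YWHAQ and -0.11 for YWHAZ, and were not called. CDKN1B, an inhibitor of cyclin-dependent kinases, had the lowest log2 fold change of the pathway, -0.71 (standard error 0.45), at means of 28.1 ± 4.82 in NC and 18.7 ± 9.87 in KD (SD, n = 3 each), and was not called. That value rested on KD replicate 2, at 7.44 against 25.6 and 23.2 in the other KD libraries, and without it the log2 fold change was -0.18 for CDKN1B and -0.23 for CCNH. ATM, a kinase of the DNA damage response, differed by 0.19 on the log2 scale (standard error 0.12) and was not called either.

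The fourth list holds factors that carry out or control the destruction of B cyclins and CDK1 regulators. Among them, CDC20 and FZR1 direct the anaphase-promoting complex to its substrates, and BTRC and FBXW11 mark WEE1 and CDC25A for degradation. Of the 8 tested genes of this list 0 were called, and the log2 fold changes ran from -0.14 to 0.28. The upper end was FBXW11, with means of 1193 ± 119 in NC and 1446 ± 180 in KD (SD, n = 3 each), without overlap between the groups and with an adjusted p of 0.997 by limma.

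**Figure D5:**
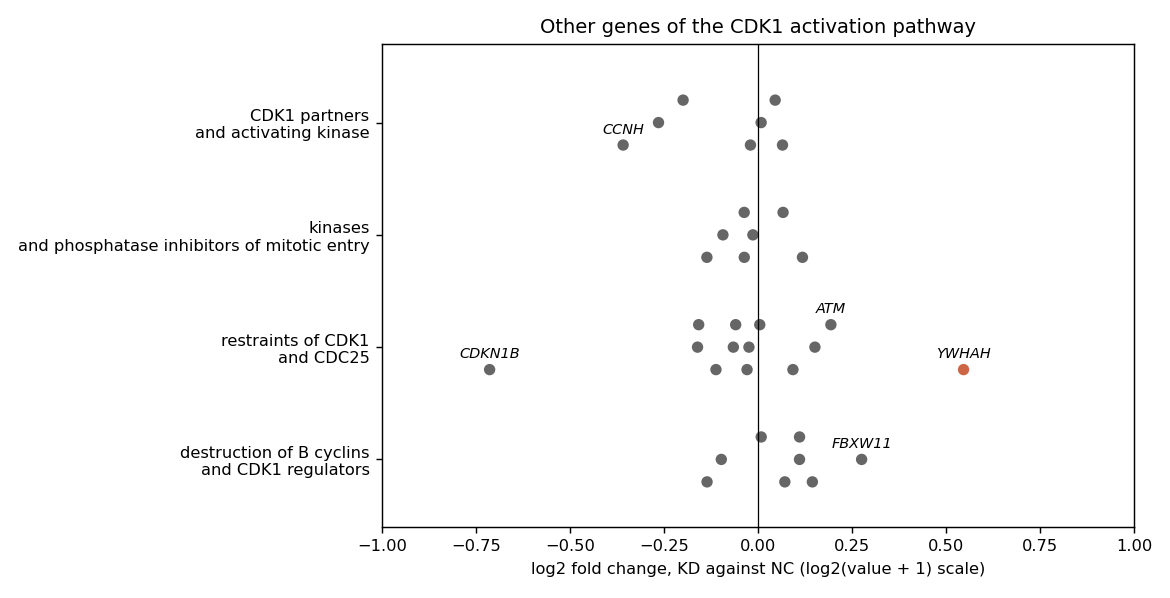
Log2 fold change of KD against NC (log2(value + 1) scale) of the 35 tested genes of the wider pathway, 1 point per gene in 4 lists, with the height within a list only separating points. YWHAH (orange, 0.55) is past an adjusted p of 0.05, and the other 34 genes (grey) lie between -0.71 for CDKN1B and 0.28 for FBXW11.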

How the data were processed

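Reads of 3 NC and 3 KD libraries were assigned by the authors to transcripts of Sscrofa11.1 with Salmon 0.14.1, and groups were compared with DESeq2. The deposited table holds normalized signal values per gene, which are estimated reads scaled between libraries. Between 57.8% and 71.4% of values below 10 lay within 0.05 of whole multiples of a single step per library, so the values were not treated as counts.

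Genes with a mean of at least 10 were tested with limma 3.58.1 (R 4.3.3) on log2(value + 1) with group as the single term, a variance trend and Benjamini-Hochberg adjustment over all genes. On this scale fold changes of low genes are understated. Single values were compared by exact two-sided permutation tests (scipy 1.17.1). The fit was tested on simulated data. The p-values rest on the spread between pools of embryos. In limma, each gene's variance was drawn toward that of genes of similar mean. Its p-values and intervals therefore do not measure the spread of that gene alone. Names missing from the table were looked up by Ensembl identifier, and positions and sequences come from RefSeq, read with pysam 0.24.0. Promoters of the other members are not reported here.

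The members and gene lists were chosen with earlier results of these data known. Named genes are the members, SIN3A, called pathway genes, the 2 highest and 2 lowest of the other pathway genes, CDK1 and the 5 genes most like CCNB1. Other genes of the lists are mentioned as examples of their roles or as the ends of a list's range. The alternatives were other pseudocounts (0.1 and 10), filters and scalings, other variance models, the replicate number as a block, and leaving out each library.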

Additional observations from a re-analysis of the deposited data

How the results depend on the processing

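The value of CCNB1 in KD stayed lower than in NC in all 15 alternatives. Its log2 fold change was -2.37 without the variance trend (adjusted p = 0.423 by limma) and -2.37 with the robust empirical Bayes step (adjusted p = 0.439), and these 2 settings ended the call, leaving 0 members called, with 1 and 2 members at an unadjusted p below 0.05. Both settings change only how the variance is estimated, and SIN3A lost its call in the same 2 settings. Why the calls were lost was not tested. With each library left out in turn, CCNB1 had a log2 fold change of -2.57 to -1.99, the last without KD replicate 2, and an adjusted p of at most 0.000604. The CCNB1 to CCNB2 log2 ratio then differed by -2.63 to -1.98 and the CDC25 to WEE log2 ratio by -0.16 to 0.049. Over all genes 19 were called, 11 to 19 in the fits on 5 libraries, and 0 when the variance trend was dropped, with 622 at an unadjusted p below 0.05. The counts were 12 without NC replicate 2 or NC replicate 3, and 11 without KD replicate 1 or KD replicate 2. In the pathway lists 1 gene was called, 0 or 1 in the fits on 5 libraries, 0 with quantile normalization (3 at an unadjusted p below 0.05) and 0 when the trend was dropped (1 at an unadjusted p below 0.05).

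Small differences changed sign in the fits on 5 libraries, where values on the log2 scale ran from -0.025 to 0.10 for CCNB2, from -0.080 to 0.17 for CDC25B, from -0.025 to 0.094 for WEE2, from -0.25 to 0.77 for WEE1 and from -0.14 to 0.28 for CDK1. The sign held but the value moved by over 1.5 times for CCNB3 (0.079 to 0.29), CDC25A (-0.21 to -0.093), CDC25C (-0.10 to -0.024), CDKN1B (-1.01 to -0.18), CCNH (-0.49 to -0.23), ATM (0.13 to 0.32) and FBXW11 (0.18 to 0.35). None of these 12 genes was called in any of the settings run. For the 15 genes other than CCNB1 that the naming rule takes from the members and the pathway, 201 of 222 comparisons with an alternative kept direction and side of the threshold, 12 changed direction and 9 lost a call, 7 for YWHAH and 2 for SIN3A. At a mean of at least 100, WEE1, CDKN1B and CCNH were not tested. The count tests planned in case of counts were not run.

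Same-numbered NC and KD libraries share a number in the labels, and no source says that they share oocytes. Their deviations from the group means correlated at 0.109, 0.111 and 0.0872 in replicates 1 to 3. Between different numbers the mean was -0.0513, which follows from the same-number values because the group means were subtracted. In this comparison 6 of 6 libraries correlated best with their own number, but both groups were read from the same correlations, so these are not 6 separate observations. With the replicate block, 26 genes were called, CCNB1 had an adjusted p of 1.49e-09 by limma, and the calls on the other members stayed as they were. The table gives no read counts, so the precision of low genes such as WEE1 rests on the spread between libraries and on the variance trend.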
